A study of Bos taurus with 32 samples.

Results

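The T and NK cell genes described here were CD2, CD3D, CD3E, CD3G, CD4, CD5, CD8A, PRF1, ZAP70 and LCK. A probe was taken for a gene when its name in the scanner files, or the symbol in brackets in its description, matched the gene. By this rule 9 of the 10 genes had a probe, 1 each, among 15208 probes, and ZAP70 had none. LCK was found through its description, since the scanner files name its probe MGC126900. Endometrium was taken on Day 15 of the estrous cycle from non-lactating Japanese Black cows, 4 repeat breeder (RB) cows and 4 normally fertile (non-RB) cows. RB cows had failed to conceive after repeated inseminations although their uterus and ovaries felt healthy on palpation. Non-RB cows had conceived, their pregnancies had been ended with an injection of a prostaglandin F2α analogue, and they had then cycled normally again, so that a recent pregnancy and its treatment went with the non-RB label. From each cow, caruncular endometrium (CAR, the raised areas where the placenta attaches) and intercaruncular endometrium (ICAR, the glandular tissue between them) were dissected from the horn ipsilateral to the corpus luteum and from the contralateral horn, and each sample was hybridized to 1 single-colour (Cy3) array, which gave 8 groups of 4 and 32 arrays in all. The question behind the comparison was which endometrial genes set RB cows apart in either tissue or horn.

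T cells recognise antigen through a receptor that cannot signal by itself. The CD3 chains (CD3D, CD3E and CD3G) carry its signal into the cell, the coreceptors CD4 and CD8A hold it to MHC molecules and bring along LCK, the kinase that starts the cascade, and ZAP70 is the kinase recruited next. CD2 is an adhesion receptor of T and NK cells, CD5 tunes the strength of receptor signalling, and PRF1 is perforin, the pore-forming protein of cytotoxic T cells and NK cells. In the endometrium such cells lie within the epithelium and in the stroma beneath it, and the balance between defence and tolerance of the conceptus is one of the roles assigned to them.

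The sequences of 3 probes are shown because the results turn on what they measured: PRF1 on how its signal followed the time of scanning, LCK on the difference between RB and non-RB cows, and CD4 on its missing signal. Each is the whole 60-base probe as the scanner files give it, 5′ to 3′, and no stretch is set in capitals.
PRF1: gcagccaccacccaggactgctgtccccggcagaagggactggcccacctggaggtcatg
LCK: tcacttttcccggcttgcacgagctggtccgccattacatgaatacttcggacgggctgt
CD4: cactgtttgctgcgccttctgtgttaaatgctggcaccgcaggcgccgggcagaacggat
G and C made up 68.3% of the PRF1 probe, 55.0% of the LCK probe and 60.0% of the CD4 probe. Over the 12919 probes that 8 or more of the 32 arrays measured well above background, the median was 43.3%, and 1.04% of them had as much G and C as the PRF1 probe or more.

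Values below are log2 signals minus the log2 of the array's own 75th percentile, so that 0 is the signal at that percentile and a step of 1 is a factor of 2. Probes bind their targets with different strength, and the level of a probe was never set against that of another. The 75th percentile lay between 1165 and 4857 intensity units, 74.3% to 85.8% of the probes of an array were well above background and precision is limited by how few arrays a group has. The arrays lay on 8 slides and were scanned in 4 sessions, a session being all scans of 1 calendar month. Session 1 held 2 arrays (slide 1, both non-RB), session 2 held 12 (9 RB and 3 non-RB), session 3 held 11 (4 and 7) and session 4 held 7 (3 and 4). The 2 arrays of slide 1, CAR of the contralateral horn of non-RB replicate 2 and ICAR of that horn of non-RB replicate 1, stood apart: 1 of them had 351 spots marked as outliers by the scanner software, against at most 29 on any array of the other slides. As a check of the tissue labels, the gland transcription factors FOXA2 and SPDEF were lower in CAR than in ICAR, with CAR minus ICAR at -1.69 and -1.92 (limma without a term for the cow, adjusted p = 0.0361 and 0.0353). SPP1, the other marker of the gland list with a probe, did not pass, at 0.21 (adjusted p = 0.906). Of the 5 pan-leukocyte markers with a probe, CD53, CORO1A, CD37, RAC2 and ARHGDIB, every one was well above background on 32 arrays, and their summed signal, as a multiple of the 75th percentile, ran from 4.80 to 21.2 on RB arrays and from 5.53 to 25.3 on non-RB arrays.

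CD3E and CD8A were well above background on 32 of 32 arrays, CD2 and PRF1 on 31, CD3G on 30, CD5 on 29, CD3D on 25 and LCK on 22. The LCK arrays were 9 of 16 RB and 13 of 16 non-RB. CD4 was well above background on 0 of 32 arrays. Its signal lay between -10.71 and -7.90, and on 14 arrays it was the lowest signal of the array, a value between -10.71 and -8.66 that 862 to 1945 probes of an array shared. CD4 therefore gave only a bound on every array and entered no comparison, and its mean of -9.57 ± 0.22 (SD, n = 4) in RB and -9.21 ± 0.21 in non-RB cows describes the background. LCK, CD3G and CD3D were each at that lowest signal on 1 array.

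**Figure D1:**
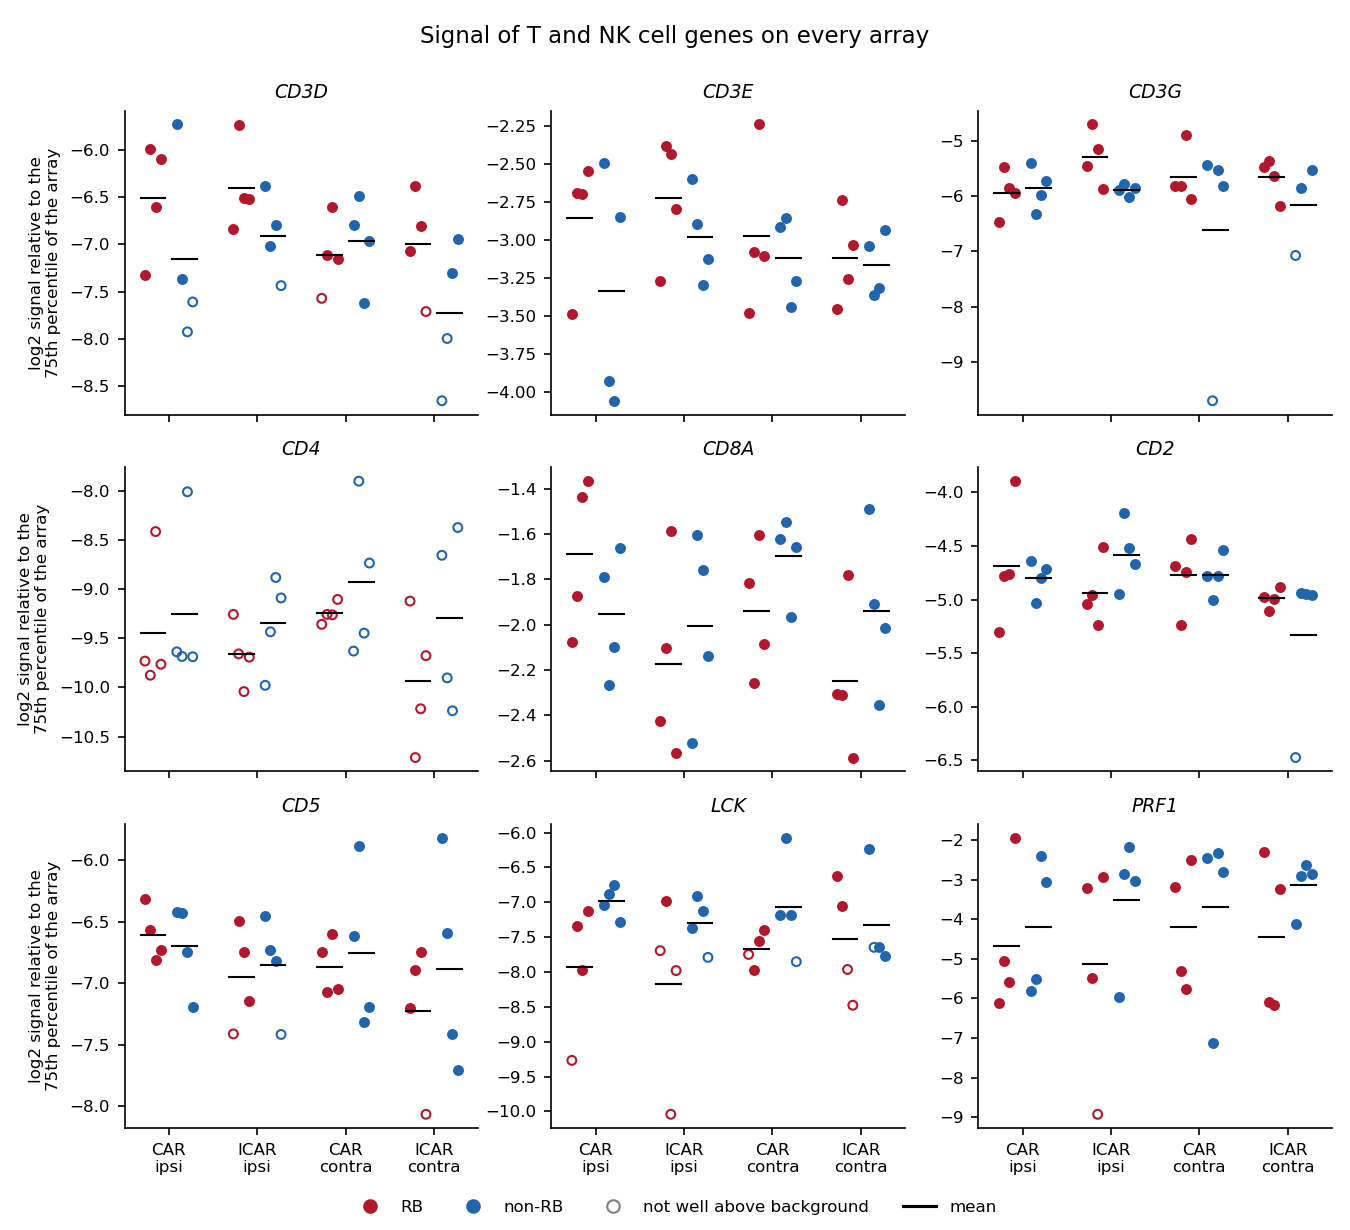
Log2 signal of the 9 genes minus that of the array's 75th percentile (vertical axes, a separate scale for each gene) in CAR and ICAR of the ipsilateral and contralateral horns. Points are single arrays, 4 RB and 4 non-RB in each tissue, open points were not well above background, and bars are means; RB and non-RB points overlapped for every gene in every tissue, all 32 CD4 points were open, and PRF1 split into a high and a low set within both groups.

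No member passed adjustment over all probes between RB and non-RB cows, in any of the 4 tissues or in the whole uterus. In CAR of the ipsilateral horn 0 of the 8 members tested were called by limma (adjusted p under 0.05), against 0% of 13080 probes, and 0 had an unadjusted p under 0.05, against 3.41%. In ICAR of the same horn 0 were called, against 0% of 12889, and 1 had an unadjusted p under 0.05 (CD3G), against 3.69%. In the contralateral horn 0 were called and 0 had an unadjusted p under 0.05 in either tissue, against 0% called and 1.74% of 13135 probes unadjusted in CAR, and 0% and 1.6% of 12980 in ICAR. Over the whole uterus, with the 4 arrays of each cow averaged to 1 value, 0 were called and 1 had an unadjusted p under 0.05 (LCK), against 0% and 2.21% of 12919 probes. RB and non-RB arrays overlapped for every member in each comparison, where 1.97%, 2.23%, 1.37%, 1.48% and 1.19% of all probes, in the same order, had groups that did not overlap. The methods' t-test, unpaired, called 0 members after adjustment in any of the 5 comparisons, and had 1 at an unadjusted p under 0.05, LCK in the whole uterus. With 4 against 4 arrays an exact permutation test cannot go below p = 0.0286. These 5 comparisons share arrays, so that similar values in them are not independent. In such bulk tissue, fewer cells of a type and less RNA per cell cannot be told apart.

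CD3E, the CD3 chain without which the receptor complex does not reach the surface, had the narrowest range of the 3 chains over all arrays, 1.82. CD3D had a range of 2.93 and CD3G of 4.99. The CD3G range includes the 2 slide 1 arrays, at -9.69 and -7.07. On the other arrays CD3G ran from -6.48 to -4.71, about as narrow as CD3E, from -4.06 to -2.24. In CAR of the ipsilateral horn it was -3.49, -2.69, -2.70 and -2.55 in the RB cows and -2.49, -3.93, -4.06 and -2.85 in the non-RB cows. The first RB cow lay with the lower values of the non-RB cows, and the first non-RB cow was the highest of the 8. The means differed by 0.48 (RB minus non-RB, SE 0.40, 95% CI -0.42 to 1.37, exact permutation p = 0.286). In ICAR of that horn the RB values were -3.27, -2.38, -2.43 and -2.79 and the non-RB values -2.60, -2.90, -3.30 and -3.13, a difference of 0.26 (SE 0.27, exact permutation p = 0.314). Contralateral differences were 0.15 in CAR and 0.04 in ICAR, and that of the whole uterus was 0.23 (95% CI -0.29 to 0.75, exact permutation p = 0.343). RB means were thus the higher in each of the 4 tissues by an amount within the error. Ordered by mean, CD3E ran from ICAR of the ipsilateral horn in RB cows, -2.72 ± 0.41 (SD, n = 4), to CAR of the ipsilateral horn in non-RB cows, -3.33 ± 0.78.

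CD3D, the delta chain, was -7.33, -5.99, -6.61 and -6.10 in CAR of the ipsilateral horn of RB cows, and -5.73, -7.37, -7.93 and -7.61 in that of non-RB cows, where the last 2 were not well above background. Most RB arrays were above most non-RB arrays there, with the first cow of each group lying the other way. By exact permutation, the difference was 0.65 (SE 0.49, p = 0.314) in CAR and 0.51 (SE 0.31, p = 0.2) in ICAR of the ipsilateral horn, -0.15 (p = 0.657) in CAR and 0.73 (SE 0.43, p = 0.171) in ICAR of the contralateral horn. Over the whole uterus the cow means were -7.20, -6.31, -6.63 and -6.87 in RB and -6.89, -7.22, -7.41 and -7.24 in non-RB cows. They differed by 0.44 (1.35-fold, SE 0.22, 95% CI -0.06 to 0.93, limma p = 0.0770, adjusted p = 1.0, exact permutation p = 0.0571). RB replicates 2, 3 and 4 exceeded all 4 non-RB cows, and RB replicate 1 was below non-RB replicate 1. Within sessions 2, 3 and 4, over all tissues, RB arrays differed from non-RB arrays by -0.07, 0.37 and 0.27. The RB arrays of session 3 were all of RB replicate 4 and those of session 4 all of RB replicate 1. With normexp background correction, which changes dim signals most, the ipsilateral differences were 0.01 in CAR and 0.05 in ICAR, the contralateral ICAR difference was -0.59 and that of the whole uterus -0.12, so that the direction of the last 2 turned. Leaving out a replicate gave 0.39 to 1.13 in ipsilateral CAR (1.13 without non-RB replicate 1).

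CD3G, the gamma chain, had the only unadjusted p under 0.05 within a tissue. In ICAR of the ipsilateral horn it was -5.45, -4.71, -5.15 and -5.87 in RB cows and -5.89, -5.78, -6.02 and -5.86 in non-RB cows. The non-RB values were close together, RB replicates 1, 2 and 3 lay above them and RB replicate 4 among them. RB minus non-RB was 0.59 (1.51-fold, SE 0.26, limma p = 0.0496, adjusted p = 0.863, exact permutation p = 0.0857), and 0.24 with the slide and 0.47 with the session as a block. Contralateral CAR gave RB values of -5.82, -5.82, -4.90 and -6.06 and non-RB values of -5.44, -9.69, -5.52 and -5.82. Here the non-RB array on slide 1 sat at the lowest signal of its array, and the difference of 0.97 (SE 0.88, exact permutation p = 0.543) became -0.05 without it. On the other slide 1 array, ICAR of the contralateral horn, CD3G was -7.07 and not well above background, the value of non-RB replicate 3 there was missing because its spot was marked as an outlier, and the difference of 0.49 became 0.03 without the slide 1 array. CAR of the ipsilateral horn differed by -0.08. The whole uterus value of 0.47 (SE 0.29, exact permutation p = 0.229) was 0.15 without the 2 arrays of slide 1, a removal chosen after seeing the data, and 0.03 with the session and -0.06 with the slide as a block.

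CD8A, which with its beta chain marks cytotoxic T cells and also occurs on part of the NK cells, was the member with the narrowest range, from -2.59 to -1.37 over all arrays. In CAR of the ipsilateral horn it was -2.07, -1.87, -1.44 and -1.37 in RB cows and -1.79, -2.27, -2.10 and -1.66 in non-RB cows, a difference of 0.27 (SE 0.27, exact permutation p = 0.286). In the other tissues RB means were the lower, by -0.17 in ICAR of that horn, -0.24 in contralateral CAR and -0.31 in contralateral ICAR. Over the whole uterus the difference was -0.11 (95% CI -0.51 to 0.29, exact permutation p = 0.400), with RB replicate 3 the highest of all 8 at -1.60 and the other 3 RB cows the lowest, at -2.16, -2.14 and -2.15. With the slide as a block the ICAR difference of the ipsilateral horn was -0.82 and that of the whole uterus -0.34 (limma, adjusted p = 0.409 and 0.494).

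CD2 and CD5 gave small differences in every tissue. The adhesion receptor CD2 lay between -5.30 and -3.90 on all arrays but 1, the slide 1 array of contralateral ICAR, where it was -6.47 and not well above background. Its RB minus non-RB differences were 0.11, -0.36, 0.00 and 0.34 in ipsilateral CAR, ipsilateral ICAR, contralateral CAR and contralateral ICAR (limma p from 0.178 to 0.999), and 0.02 over the whole uterus (95% CI -0.42 to 0.47). The contralateral ICAR value was -0.04 without the slide 1 array and -0.52 with normexp correction, so its direction turned. CD5, the scavenger receptor-like regulator of T cell signalling, ranged from -8.07 to -5.82 and differed by 0.09, -0.09, -0.11 and -0.34 in the same order, and by -0.11 over the whole uterus (95% CI -0.70 to 0.47). Within the non-RB cows alone CD5 spanned more than these differences, from -7.38 as the mean of replicate 4 to -6.33 as the mean of replicate 1.

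LCK, the kinase bound to CD4 and CD8, had the lowest whole-uterus p of the members, and its mean was lower in RB cows in each of the 4 tissues with all arrays kept, though not without the slide 1 array in contralateral ICAR. In CAR of the ipsilateral horn it was -9.27, -7.34, -7.97 and -7.12 in RB cows and -7.04, -6.88, -6.75 and -7.28 in non-RB cows. The 4 non-RB values were close together, RB replicate 4 was among them and RB replicate 1, not well above background, was far below. The difference was -0.94 (SE 0.44, 95% CI -1.91 to 0.03, limma p = 0.0571, exact permutation p = 0.0571), -0.49 without RB replicate 1 and -0.29 with normexp correction. In ICAR of that horn LCK was -7.69, -6.98, -10.04 and -7.98 in RB cows, replicates 1, 3 and 4 not well above background and replicate 3 at the lowest signal of its array, against -7.37, -6.91, -7.12 and -7.79 in non-RB cows, of which replicate 4 was not well above background. That difference was -0.88, and -0.25 without RB replicate 3. LCK passed the filter in this tissue only through the non-RB arrays. The difference rests largely on background values, so no p is given. Contralateral values were -7.75, -7.97, -7.56 and -7.40 in RB against -7.18, -6.08, -7.18 and -7.85 in non-RB cows in CAR, a difference of -0.60 (exact permutation p = 0.171). RB replicate 1 and non-RB replicate 4 were not well above background there, and the difference was -0.26 without non-RB replicate 2, the slide 1 array, and -0.01 with normexp correction. Contralateral ICAR gave -6.63, -7.06, -7.96 and -8.48 against -6.24, -7.65, -7.65 and -7.77, a difference of -0.21 (exact permutation p = 0.743). RB replicates 3 and 4 and non-RB replicate 2 were not well above background there, the difference was 0.16 without non-RB replicate 1, the slide 1 array, and 4 of 18 alternatives turned its direction.

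Averaged over the 4 tissues, LCK was -7.83, -7.34, -8.38 and -7.74 in the RB cows and -6.96, -6.88, -7.18 and -7.67 in the non-RB cows. Non-RB replicate 4 lay within the RB values, RB replicate 2 above it, and the other 3 non-RB cows above all RB cows. The means differed by -0.65 (1.57-fold lower in RB, SE 0.26, 95% CI -1.24 to -0.07, limma p = 0.0323, adjusted p = 1.0, exact permutation p = 0.0571). Leaving out a cow at a time gave -0.82 to -0.47. Over all tissues, RB arrays were also the lower within each session that held both groups, with differences of -0.92 in session 2, -0.22 in session 3 and -0.23 in session 4. All RB arrays of session 3 were of RB replicate 4 and all those of session 4 of RB replicate 1. Each of these latter differences thus rests on a single RB cow, and tissues were not matched within sessions. With the session as a block the difference was -0.46 (limma, adjusted p = 0.486) and with the slide as a block -0.31 (adjusted p = 0.884). LCK kept its direction in all 19 alternatives run for the whole uterus, 8 of them with an unadjusted p under 0.05, and the lowest adjusted p among them was 0.233. Some of these alternatives counted the 4 arrays of a cow as separate samples. Among all 12384 probes with a value on every array, 5.85% had a larger share of their sum of squares between RB and non-RB cows than LCK, whose share was 18.2%.

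**Figure D2:**
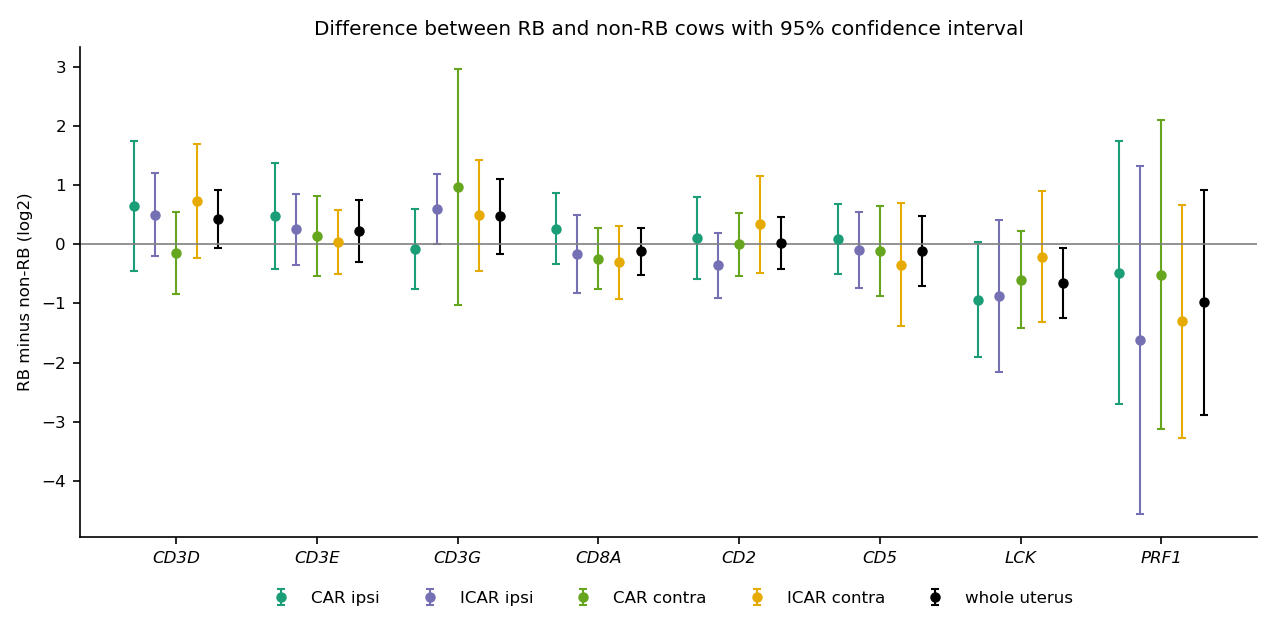
RB minus non-RB difference of each of the 8 genes tested (vertical axis, log2) in the 4 tissues and over the whole uterus, with the 95% confidence interval of limma. The interval excludes 0 for CD3G in ICAR of the ipsilateral horn and for LCK over the whole uterus (-1.24 to -0.07), neither past adjustment over all probes, and the PRF1 intervals are the widest.

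PRF1, perforin, ranged over 6.97 log2 units, from -8.93 to -1.95, more than any other member. In CAR of the ipsilateral horn it was -6.12, -5.05, -5.58 and -1.95 in RB cows and -5.80, -5.52, -2.42 and -3.06 in non-RB cows. Both groups held high and low arrays, with 1 high RB and 2 high non-RB arrays. The difference was -0.48 (SE 0.998, 95% CI -2.70 to 1.75, exact permutation p = 0.857). In ICAR of that horn the RB values were -3.21, -5.49, -8.93 and -2.93 and the non-RB values -5.96, -2.87, -2.18 and -3.04. RB replicate 3 was not well above background, and the difference of -1.62 (SE 1.31, exact permutation p = 0.371) was -0.36 without it. In the contralateral horn PRF1 was -3.19, -5.31, -5.77 and -2.51 in RB against -2.45, -7.13, -2.34 and -2.82 in non-RB cows in CAR. In contralateral ICAR it was -2.30, -6.08, -6.16 and -3.23 against -4.13, -2.92, -2.64 and -2.86. The single low non-RB array of each of these tissues was the one on slide 1. The differences were -0.51 (SE 1.16, exact permutation p = 0.771) and -1.30 (SE 0.87, p = 0.314), and -1.66 in CAR without its slide 1 array. Over the whole uterus it was -0.98 (1.97-fold lower in RB, SE 0.85, 95% CI -2.89 to 0.93, limma p = 0.277, adjusted p = 1.0, exact permutation p = 0.400).

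The high and the low PRF1 arrays did not mix between the earlier and the later scan sessions. On the 14 arrays of sessions 1 and 2 PRF1 lay between -8.93 and -4.13, with a median of -5.79, and on the 18 arrays of sessions 3 and 4 between -3.23 and -1.95, with a median of -2.84. The ranges did not overlap and were 0.90 apart. This division of the sessions was chosen after the PRF1 values were seen, and is given as a description. The early minus late difference of means was -3.21, the lowest of the 12919 probes, whose median was 0.03. Only 0.286% of the probes (37) were lower in sessions 1 and 2 without overlap, PRF1 among them, and 0.209% (27) higher. The session held 82.1% of the sum of squares of PRF1, and 0.929% of the probes had a larger share. The 3 cows with arrays on both sides of this division showed the same separation. RB replicate 1 was -6.12 on its 1 early array and -2.90 on average on its 3 later ones, non-RB replicate 1 -5.30 on 3 and -2.45 on 1, and non-RB replicate 2 -6.32 on 2 and -2.90 on 2.

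Since 9 of 16 RB arrays but 5 of 16 non-RB arrays were scanned in sessions 1 and 2, the group comparison of PRF1 was read within sessions too. RB minus non-RB was -0.29 in session 2 (9 and 3 arrays), 0.05 in session 3 (4 and 7) and -0.23 in session 4 (3 and 4), and session 1 held no RB array. The RB arrays of session 3 were all of RB replicate 4 and those of session 4 all of RB replicate 1, a single cow in each. The session as a block gave -0.14 over the whole uterus (limma, adjusted p = 0.895) and 0.38, -0.66, -0.28 and -0.01 in ipsilateral CAR, ipsilateral ICAR, contralateral CAR and contralateral ICAR. With this block the whole-uterus difference was nearer to 0 than the -0.98 without it, and that of ipsilateral CAR changed sign. With the slide as a block contralateral ICAR was 0.02. Leaving out RB replicate 3, whose 4 arrays were all in session 2, moved the whole-uterus value to -0.31, and leaving out RB replicate 4, all in session 3, moved it to -1.63. The part of scanning, labelling or hybridization in the PRF1 values was not tested, and extraction times are not given in the sources used here. Among the 179 probes with at least 65% G and C, the early minus late median was -0.21 and 1.68% (3 probes) were lower without overlap, and across all probes the correlation of G and C content with the early minus late difference was -0.05.

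**Figure D3:**
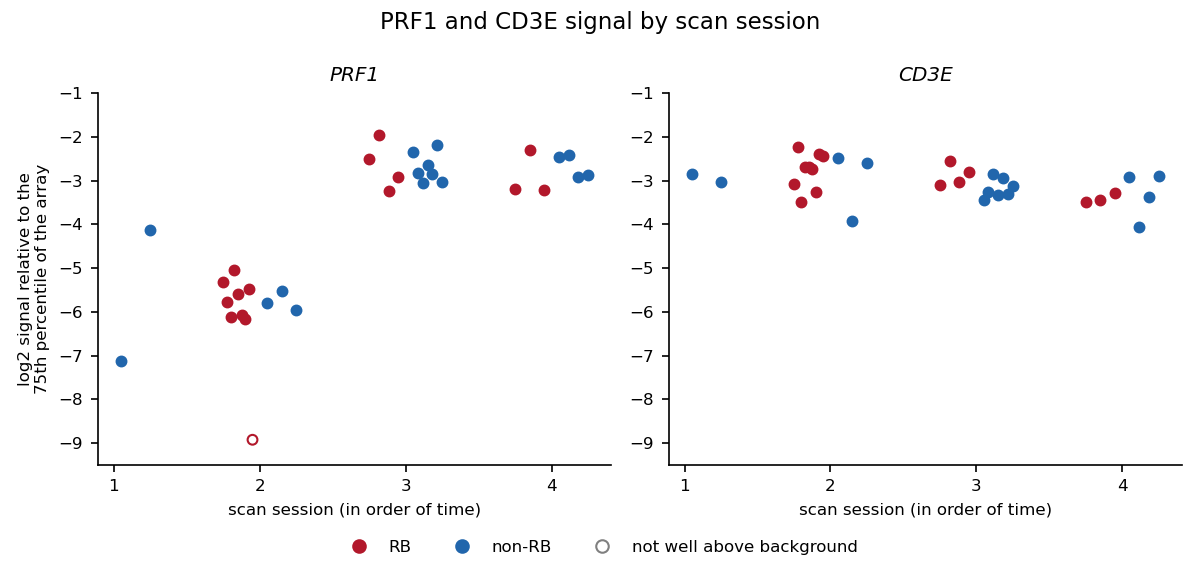
Log2 signal of PRF1 and CD3E minus that of the array's 75th percentile (vertical axis) by scan session in order of time (horizontal axis), 1 point per array, the open point not well above background. PRF1 was at most -4.13 in sessions 1 and 2 and at least -3.23 in sessions 3 and 4 in RB and non-RB cows alike, whereas the CD3E ranges of the sessions overlapped.

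None of the other members split between sessions 1 and 2 and sessions 3 and 4 without overlap. The 2 arrays of session 1, both of slide 1, did lie clear of all others for 3 members. LCK was -6.24 and -6.08 on them and at most -6.63 elsewhere, CD5 was -5.88 and -5.82 against at most -6.31, and CD3G was -9.69 and -7.07 against at least -6.48. CD5 was higher early, by 0.60, with 63.9% of its sum of squares between sessions, and CD2 lower early, by -0.41, with 44.7%. CD3D, LCK, CD3E and CD8A had shares of 28.5%, 27.9%, 21.1% and 11.1%, against a median of 28.4% over all probes. CD8A had the smallest share of these 7 genes. CD3D was well above background on 12 of 12 arrays of session 2, on 8 of 11 of session 3 and on 4 of 7 of session 4.

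None of the T and NK cell genes passed adjustment between CAR and ICAR either. In this comparison of 32 arrays limma called 0 of 8 members, against 1.35% of 12919 probes, and 1 member, CD8A, had an unadjusted p under 0.05, against 16.2%. The fit had no term for the cow, although each cow gave both tissues. Results with the replicate as a block, which stands for the cow, are given under the alternatives. The CD8A difference, CAR minus ICAR, was 0.27 (1.21-fold, SE 0.12, 95% CI 0.02 to 0.52, limma p = 0.0344, adjusted p = 0.253), with the CAR mean of the horns above the ICAR mean in 7 of 8 cows (exact sign-flip permutation p = 0.0312). The 8 CAR means averaged -1.82 ± 0.20 (SD) and the 8 ICAR means -2.09 ± 0.30. The value stayed between 0.19 and 0.37 over 16 alternatives, 12 of them with an unadjusted p under 0.05, and the lowest adjusted p was 0.0587 with the slide as a block. CAR minus ICAR was 0.25 for CD5 (exact sign-flip permutation p = 0.148, higher in CAR in 6 of 8 cows), 0.20 for CD2 (p = 0.227, 6 of 8 cows), CD3G -0.27 (p = 0.5, 4 of 8), LCK 0.17, PRF1 -0.13, CD3E -0.08 and CD3D 0.07. The gland factors FOXA2 and SPDEF were higher in ICAR as given above, and their part in the CD8A difference was not tested.

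Between the horns limma called 0 of 8 members, against 0% of 12919 probes, and 1 had an unadjusted p under 0.05, CD3D, against 1.36%. The limma fit of the horns had no term for the cow either. For CD3D the horn of the corpus luteum minus the other was 0.46 (1.37-fold, SE 0.21, limma p = 0.0378, adjusted p = 1.0), above 0 in 7 of 8 cows (exact sign-flip permutation p = 0.133). Its 8 cow values were -6.74 ± 0.63 (SD) ipsilateral and -7.20 ± 0.36 contralateral. With the session as a block the difference was 0.31 (limma, adjusted p = 0.733), and with normexp correction 0.06. CD2 was 0.22 (6 of 8 cows, exact sign-flip permutation p = 0.133), CD3G 0.27, CD5 0.16, CD3E 0.12 and CD8A 0.00 on the same scale, ipsilateral minus contralateral, and LCK was -0.20 and PRF1 -0.52. In the difference of the RB effect between CAR and ICAR, 0 of 8 members were called and 0 had an unadjusted p under 0.05, against 0% and 0.882% of the probes. Between the horns the same counts were 0 and 0, against 0% and 5.98%. The lowest unadjusted p of the members in either was 0.171, for CD8A between the horns (0.32, SE 0.22). The RB effect on any member was therefore not shown to differ between tissues or horns, although the intervals are wide, from -1.23 to 3.18 for PRF1 between CAR and ICAR.

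Ordered over the 8 groups, neighbouring means differed by less than the larger of their SDs for every member, in 7 of 7 steps. PRF1 ran from -3.14 ± 0.67 (SD, n = 4) in contralateral ICAR of non-RB cows to -5.14 ± 2.77 in ipsilateral ICAR of RB cows, a span of 2.0. LCK ran from -6.99 ± 0.23 in ipsilateral CAR of non-RB cows to -8.17 ± 1.31 in ipsilateral ICAR of RB cows, a group mostly not well above background. With all arrays kept, its 4 non-RB means were above its 4 RB means. In contralateral ICAR the RB mean was the higher, by 0.16, without the slide 1 array. CD3D, CD3E and CD3G were highest in ipsilateral ICAR of RB cows, at -6.40 ± 0.47, -2.72 ± 0.41 and -5.29 ± 0.49, and the group lowest in CD3D was contralateral ICAR of non-RB cows (-7.72 ± 0.76) while that lowest in CD3G was contralateral CAR of non-RB cows (-6.62 ± 2.06). CD5 and CD8A were highest in ipsilateral CAR of RB cows (-6.60 ± 0.22 and -1.69 ± 0.34) and lowest in contralateral ICAR of RB cows (-7.23 ± 0.59 and -2.25 ± 0.34). CD2 ran from -4.58 ± 0.31 in ipsilateral to -5.33 ± 0.76 in contralateral ICAR, both of non-RB cows. The lowest groups of CD2 and CD3G each held a slide 1 array, at -6.47 for CD2 and -9.69 for CD3G. The other values of these groups were -4.96 to -4.94 for CD2 and -5.82 to -5.44 for CD3G. Their place as lowest thus leans on slide 1.

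The spread of each gene was divided among the factors of the design. Shares of different factors are not compared, since there are more cows than labels, and each is read against the median of all probes. Differences between cows within RB or non-RB took 53.5% of the sum of squares of PRF1, 53.2% of CD5, 48.3% of CD3E, 29.2% of CD2, 26.5% of CD8A, 20.02% of LCK and 16.6% of CD3D, against a median of 37.5% over 12384 probes. RB or non-RB took between 0.08% (CD2) and 18.2% (LCK), with a median of 2.73% over all probes. Compartment took 15.4% of CD8A and the horn 12.1% of CD3D, each the highest among the members, where the medians of all probes were 2.54% and 0.97%. Cow and session overlap, since 4 of the 8 cows had all their arrays in 1 session, and cannot be told apart in those. CD3G was left out of these shares for its missing value.

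**Figure D4:**
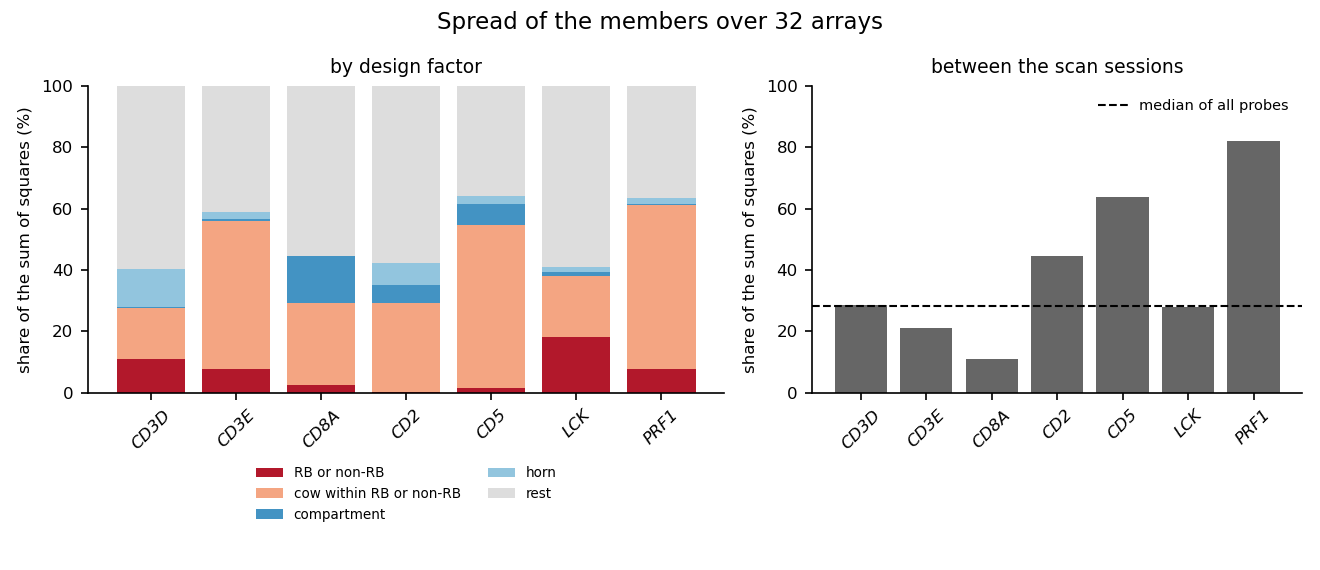
Share of the sum of squares (vertical axes, percent) of 7 genes over 32 arrays by RB or non-RB, cow, compartment, horn and rest (stacked bars, left) and between the 4 scan sessions (bars, right, with the median of all probes as a dashed line). The session bar is highest for PRF1, at 82.1%, and lowest for CD8A, at 11.1%, and the RB or non-RB part is largest for LCK, at 18.2%.

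Members were also set against each other. Over the 8 cow means, 28 pairs of members were correlated, with r from -0.71 to 0.85, and 0 pairs had an adjusted permutation p under 0.05. The highest pair was CD3D and CD3E, 2 chains of the same complex, with Pearson's r = 0.85 (exact permutation p = 0.00623, adjusted 0.174) and Spearman's rho = 0.86 (p = 0.0107, adjusted 0.300) over 8 cows, and r = 0.89 without the 2 cows farthest from the median of CD3D. CD3D and PRF1 were the most opposed (r = -0.71, exact permutation p = 0.0503, adjusted 0.478), and r was -0.29 without the 2 cows farthest from the median of CD3D, so that it rested on them. CD3D and CD3G had r = 0.55, and that was no longer so without the 2 farthest, at -0.0026. Since PRF1 and CD5 followed the session, and sessions were shared unequally among cows, the cow means also carry the session.

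Over the 32 arrays, with the mean of each of the 8 groups taken off, r ran from -0.58 to 0.66 with a median of 0.13, and 21 of 28 pairs were positive. These values are a description, since arrays share cows, slides and sessions. CD3D with CD3E was again the highest, and CD5 with PRF1 the lowest. When the session means were also taken off, a step chosen after seeing the data, the range was -0.21 to 0.77 with a median of 0.27 and 23 pairs positive. CD5 with PRF1 then went from -0.58 to 0.17, CD2 with PRF1 from 0.56 to -0.15, and PRF1 with LCK from 0.23 to 0.74. On the ipsilateral ICAR array of RB replicate 3, PRF1 and LCK both had their lowest values, -8.93 and -10.04. Neither was well above background there, and a PRF1 with LCK value without this array is not given. CD3D with CD2 went from 0.33 to 0.77, while CD3D with CD3E stayed near, at 0.62. With only group means taken off, CD3D with CD2 was 0.17 without the 2 arrays of slide 1. Neither CD3D nor CD2 was well above background on the slide 1 array of contralateral ICAR. Without the 2 arrays of slide 1, CD3G came closer to its partner chains, at 0.65 with CD3D and 0.67 with CD3E, from 0.18 and 0.15.

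**Figure D5:**
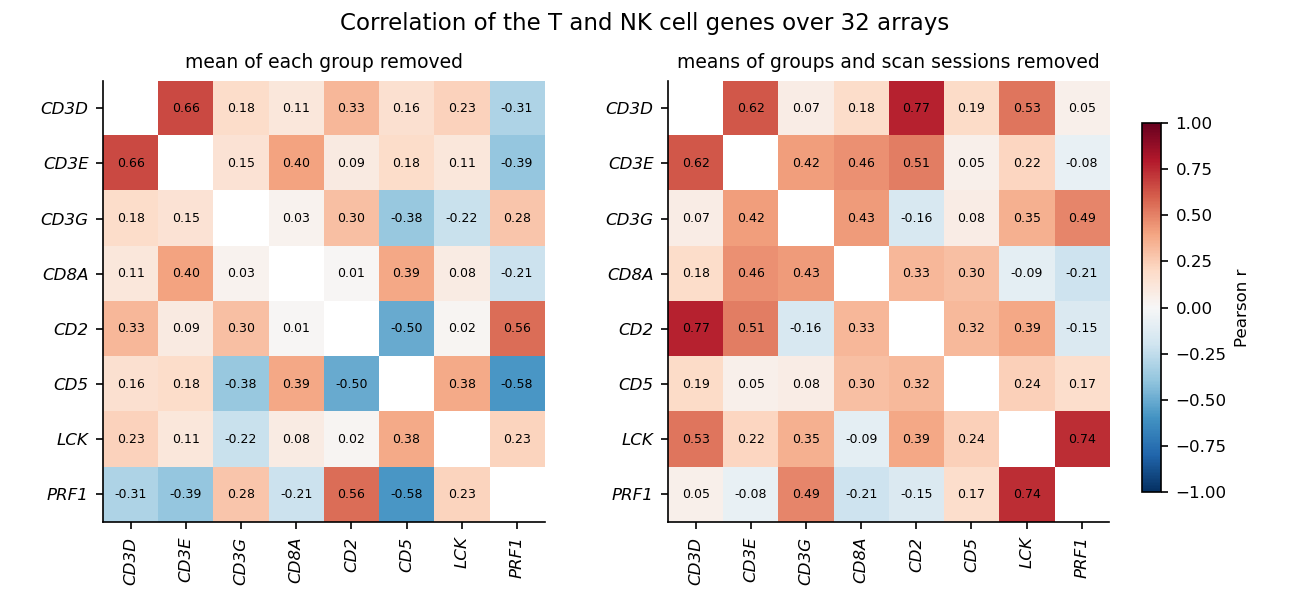
Pearson correlation of each pair of the 8 genes over 32 arrays (colour and printed number, scale from -1 to 1) after the mean of each group was taken off (left) and after the means of groups and scan sessions were taken off (right). CD3D and CD3E were correlated in both (0.66 and 0.62), while CD5 with PRF1 went from -0.58 to 0.17 and PRF1 with LCK from 0.23 to 0.74. PRF1 and LCK were both lowest, and not well above background, on the ipsilateral ICAR array of RB replicate 3.

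The genes whose pattern was most like each member were taken as the 3 named probes with the highest r over the 32 arrays, group means removed, among 3617. For CD2, a T and NK cell receptor, these included FLT3LG (0.85), a growth factor of dendritic and other blood cell precursors, and AANAT (0.84). For CD3E they included MRPL38 (0.87) and TRG@, the T cell receptor gamma cluster (0.80, and 0.87 without slide 1). CD8A was nearest to COQ3 (0.72), EIF2AK2, the interferon-induced kinase PKR (0.71), and KCNMA1 (0.69). Those of PRF1 included CACNA1H (0.91) and GPR14 (0.89), and with the session means also removed these were 0.82 and 0.67. CD3G was nearest to APOOL (0.90), which was 0.37 without slide 1. LCK had no probe over 0.78, the nearest being FECH, PGRMC2 and WDR61, CD3D was nearest to JOSD1 (0.83) and CD5 to MTR (0.87). Among 3610 probes the mean of the 8 members was nearest to the leukocyte genes CD53 (0.70), XCL1 (0.67), SELPLG (0.65) and LPXN (0.63). ATG5 (0.62), COQ3 (0.61), NQO1 (0.60), HBP1 (0.59) and PMM2 (0.59), which are not particular to leukocytes, came next, before BOLA-DRA, the bovine MHC class II alpha chain (0.58). No p was attached to these values.

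None of the other genes of T cell receptor signalling passed adjustment. Of 60 symbols of receptor, coreceptor and signalling genes 18 had a probe, 12 of which were tested over the whole uterus. Of those 12, 0 were called in either direction, 6 were higher in RB cows, and the median difference was 0.01, as was that of all probes. CD45, the phosphatase that primes LCK, differed by 0.48 (SE 0.37), FYN, the kinase most like LCK, by 0.43 (SE 0.25), and LCP2, the adaptor SLP-76, by -0.43 (SE 0.24), each with an adjusted p of 1.0 by limma. CD45 was well above background on 15 arrays only, so that many of its values are background. LCP2 had an unadjusted p of 0.0297 in contralateral CAR (-1.04). CD28, CTLA4, ICOS, FOXP3, UBASH3A and CCR7 were well above background on fewer than 8 arrays.

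Cytotoxic and NK cell genes had 21 probes for 20 of 49 symbols, and 19 were tested over the whole uterus with 0 called, 11 higher in RB cows and a median of 0.04. The granzymes GZMA and GZMB, which enter target cells with the help of perforin, differed by 0.39 (SE 0.78) and -0.17 (SE 0.40), and the 2 GNLY (granulysin) probes by 0.20 (SE 0.71) and 0.18 (SE 0.74). The NK receptor KLRD1 (CD94) differed by -0.56 (SE 0.32), NKG7, a protein of cytotoxic granules, by -0.49 (SE 0.39), and NCR1, the activating receptor NKp46, by -0.24 (SE 0.33). NKG7 was well above background on 14 arrays and NCR1 on 11, so that the differences of these genes rest largely on background values. KLRJ1, the bovine Ly49 receptor, was well above background on 14 arrays only, most of them of RB cows. It passed the whole-uterus filter only through the RB arrays, and its difference rests largely on background values, so neither a difference nor a p is given. It is still counted among the 19 tested and the 11 higher in RB cows. In CAR of the ipsilateral horn KLRJ1 was well above background on 0 of 4 non-RB and 3 of 4 RB arrays, with means of -8.90 and -6.75. It passed the filter there only through the RB arrays, so no p is given. The non-RB mean there is a background value, and no fold is given.

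Ligands, cytokines and regulators that act on T and NK cells had probes for 22 of 37 symbols. Over the whole uterus 15 were tested, 0 were called and 5 were higher in RB cows, with a median of -0.17. CD48, the ligand of CD2 in some species and of the NK receptor CD244, differed by -0.51 (SE 0.32), and CSK, the kinase that switches LCK off, by -0.39 (SE 0.31) and by -0.76 in ipsilateral CAR (unadjusted p = 0.0460, adjusted 1.0). The lymphocyte-attracting chemokines CCL19 and CCL21 differed by -0.46 (SE 0.58) and 0.44 (SE 0.62), and IL15, a growth factor of NK cells, by 0.10 (SE 0.55). CCL19 was well above background on 10 arrays and CCL21 on 11, so that their differences rest largely on background values. IL2, IL7 and IL21 were well above background on no array. The lists of B and plasma cells (4 probes tested) and of macrophages and monocytes (5 tested) had 0 called too, with medians of 0.06 and -0.08, as had the 5 pan-leukocyte markers with a median of -0.03 and the 4 epithelial markers with a median of -0.70. Gland (3 tested), stroma (6), smooth muscle (4) and endothelium (5) had 0 called as well, with medians of 0.45, 0.10, -0.0039 and 0.12, and the 1 red blood cell probe tested differed by -0.18. Their summed signals overlapped between RB and non-RB arrays, 7.50 to 27.2 against 1.04 to 25.0 for B and plasma cells and 2.29 to 4.26 against 1.70 to 4.81 for macrophages and monocytes, and their part in the members' values was not tested.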

How the data were processed

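Each of the 32 arrays came as an Agilent Feature Extraction 9.5 scanner file, and the deposited intensity values used were the processed Cy3 signals, background-subtracted by the scanner software. A deposited log2 table, scaled by the authors to the 75th percentile of each array, served as an alternative. From the intensities, log2 signals minus the log2 of each array's 75th percentile were computed, leaving out control spots and spots marked as outliers. Groups came from the sample labels. The members and lists, and the design, were chosen with earlier results of these data known.

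Probes were tested with limma 3.58.1 (R 4.3.3) where at least 2 of the 8 arrays of a tissue, or 8 of all 32, were well above background and each group had at least 3 values, with Benjamini-Hochberg adjustment over all probes tested and a threshold of 0.05. The RB comparison was made in each tissue and, for the whole uterus, over 8 cow means. CAR and ICAR, and the horns, were compared over 32 arrays, with RB status and the other of these factors in the fit. These fits had no term for the cow, although each cow gave both tissues and both horns. The exact sign-flip tests used differences within cows. Exact permutation tests were two-sided. Same-numbered arrays within RB or within non-RB were taken as 1 cow, which the labels do not state. Their deviations from the group means correlated at 0.413 and 0.381 on average. Such arrays often shared a slide or session, so this cannot show that they are of 1 cow. Same-numbered RB and non-RB arrays, from different cows, correlated at 0.229 in ipsilateral CAR and 0.175 in ipsilateral ICAR. Contralaterally these were 0.022 in CAR and 0.111 in ICAR. The limma script was tested on simulated independent arrays for RB against non-RB in ipsilateral CAR and for CAR against ICAR only. With a log2 change of 1, it recovered 1 of 100 changed probes in the former and 73 of 100 in the latter. With a change of 2 it recovered 55 and 100 of 100. A change of 1 would thus mostly go uncalled in ipsilateral CAR. Named genes were the members, the listed genes with the results stated, and for likeness the 3 named probes with the highest correlation (10 for the mean of the members). Some of these are not reported here. Where the labels do not say that arrays are separate animals, p-values measure only the spread between these arrays. Alternatives were no or a stricter filter, quantile normalization, normexp (offset 50), the deposited table, the methods' t-test, slide, session or replicate blocks, and leaving out each replicate. For the whole uterus, the t-test and the slide and session blocks used the 32 arrays with no term for the cow.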

Additional observations from a re-analysis of the deposited data

Results flagged for a closer look

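In each group of 4 arrays the highest and the lowest value of a member were compared with the other 3, and 5 of 63 groups held an array far from the rest, where chance gives about 1 in 20 groups. CD2 in contralateral ICAR of non-RB cows was -6.47 in replicate 1, with the others at -4.96 to -4.94. LCK was the highest on the same array, at -6.24 against -7.77 to -7.65. In contralateral CAR of non-RB cows replicate 2 had -9.69 for CD3G, the lowest signal of that array, against -5.82 to -5.44. PRF1 was -7.13 on it, against -2.82 to -2.34. These 4 values came from the 2 arrays of slide 1. The other was CD3E in ipsilateral CAR of RB cows, -3.49 in replicate 1 against -2.70 to -2.55, on slide 4. The part of the slide in these values was not tested.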

How the results depend on the processing

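Members called after adjustment numbered 0 under every alternative run, and of the members' values 1173 kept within the spread between replicates under an alternative, while 7 moved further. That spread was the larger SD of the 2 groups, up to 2.77 for PRF1, so values counted as kept could change sign. CD3G in contralateral CAR went from 0.97 to -0.46 with the slide as a block. PRF1 in ipsilateral CAR went from -0.48 to 0.38 with the session as a block. The counts over all probes moved more. For RB against non-RB in the whole uterus, 0 probes were called, against 60 with 32 arrays as independent samples, 67 with the methods' t-test, 35 with the slide and 59 with the scan session as a block. In contralateral ICAR the 0 became 1 without the 2 arrays of slide 1, a removal chosen after seeing the data, and leaving out 1 replicate gave 0 to 1 (1 without non-RB replicate 1). CAR against ICAR had 174 probes called, 64 with normexp and 531 with the session as a block, and 0 to 909 with 1 replicate left out (0 without non-RB replicate 1, 3 or 4 or RB replicate 1, 2 or 4, 710 without non-RB replicate 2 and 909 without RB replicate 3). Replicate numbers were taken to pair the arrays of a cow. The replicate block in limma gave 1086 called probes for CAR against ICAR, with CD8A at an adjusted p of 0.134. For the horns it gave 1, as did the slide and the session block. RB and non-RB cows are different animals, so numbers were not taken to pair them, and the replicate block called 0 there. With the slide as a block, CD5 and CD8A in ipsilateral ICAR were -0.50 and -0.82. With normexp, CD2, CD3D and CD3G in contralateral ICAR were -0.52, -0.59 and -0.79, CD3D in the whole uterus was -0.12, and the CD2 difference between the horns' RB effects was 0.11. The cause of these changes was not tested. The slide block could not be fitted in ipsilateral CAR and was not run. Signals near the lowest of an array, as those of CD4, LCK and CD3D on some arrays, limit what can be read for these genes.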

Other observations

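KLRJ1, the bovine Ly49 receptor, was well above background on 14 of the 16 arrays of RB replicates 2 (4 of 4), 3 (3 of 4) and 4 (4 of 4) and non-RB replicate 4 (3 of 4), and on 0 of the 16 arrays of RB replicate 1 and non-RB replicates 1, 2 and 3. Medians over the 4 arrays of a cow were -6.06, -5.58, -6.07 and -5.86 in the first 4 cows and between -10.07 and -8.90 in the other 4. The cows were put into these sets by the values themselves, so no test is given.

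Of 20 probes for T cell receptor chains, gathered after the files had been read, 9 were well above background on at least 8 arrays. Over the whole uterus 0 were called, 7 of the 9 were higher in RB cows, and the median difference was 0.37 against 0.01 for all probes. TRGV3-1, a gamma chain variable segment, had the only unadjusted p under 0.05 by limma (0.61, SE 0.24, adjusted p = 1.0), while TRB@, the beta chain cluster, differed by 0.01 (SE 0.17) and TRA, the alpha chain, by -0.36 (SE 0.21). Gamma chain probes can share sequence with each other, and their signals may not be separate.

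A probe of an expressed sequence tag, which the study's annotation assigns to CD4 and which the rule for members did not take, gave signals near the 75th percentile of the array, unlike the CD4 probe. Its medians in scan sessions 1 to 4 were -1.35, -0.25, 0.64 and 0.99, and RB minus non-RB was -0.46 for ipsilateral CAR, -0.70 for ipsilateral ICAR, 0.07 and 0.25 for the same tissues contralaterally, and -0.21 over the whole uterus. The difference of the RB effect between the horns was -0.75 (limma, unadjusted p = 0.0118, adjusted p = 0.799) and did not pass adjustment. The arrays of slide 1, both contralateral and non-RB, were the lowest of all for this probe, at -2.01 and -0.69. They lower the contralateral non-RB means that enter these values, and a value without them is not given. Which of the 2 probes measures CD4 was not settled here.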
